A study of Mus musculus with 6 samples.

Results

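Potassium channels are a large and varied group of ion channels. Their transcripts were followed here in cells from injured mouse cortex, sorted with the aim of enriching neurons. Members were all genes whose symbol starts with Kcn, continues with lower-case letters and then has a digit. This gave 97 of the 24419 genes in the deposited table. They comprised 40 voltage-gated pore subunits, 12 auxiliary subunits of voltage-gated channels, 15 inward rectifiers and 14 tandem-pore channels (the Kcnk genes). Another 12 were grouped as calcium- or sodium-activated members (the Kcnma, Kcnmb, Kcnn, Kcnt and Kcnu genes), and 4 were noncoding transcripts. Classes were assigned by symbol, which does not state how each member is gated. All 97 were found in the gene models of the mm10 build (GENCODE M21).

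The 6 libraries came from male mice on day 4 after the middle cerebral artery had been blocked for 60 min. Cortex around the infarct was dissociated with pronase and sorted for cells positive for Thy1 and negative for ACSA2, CD31, CD45 and O4, antigens of astrocytes, endothelium, leukocytes and oligodendrocytes. The 3 libraries labelled control had the genotype Padi4flox/flox. The 3 labelled cKO, for conditional knockout, had the genotype Slc17a7-cre; Slc32a1-cre; Padi4flox/flox. Every library therefore carried the loxP-flanked Padi4 alleles and the occlusion. Uninjured cortex and mice with Cre but without the floxed alleles were not analysed here. In the cKO genotype Cre is driven at Slc17a7 and Slc32a1, transporter genes that load glutamate and GABA into synaptic vesicles, so recombination depends on the use of those genes. The labels do not say that the libraries came from separate animals. The p-values below therefore measure the spread between these libraries, which may be technical.

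Potassium channels let potassium ions leave the cell and so bring the membrane back toward rest. Voltage-gated members end the action potential and set firing rate, inward rectifiers and tandem-pore channels hold the resting potential, and channels opened by calcium or sodium shape the pause after a spike. In cortex, glia also use them, since astrocytes and oligodendrocytes clear potassium through an inward rectifier. A pore is built from a short loop, the selectivity filter, that nearly every family shares.

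The filter is shown for the members on which the results turn, because it is the sequence feature the rule by symbol did not use and it separates pore subunits from their partners. It was searched as the potassium channel signature, 5 codons in frame in the coding sequence: threonine or serine, any codon, glycine, tyrosine or phenylalanine or leucine, glycine. Sequences are from GENCODE M21 transcripts (GRCm38), 5′ to 3′ on the coding strand, with the 15 signature bases in capitals and 12 bases of flank on each side.
Kcna1: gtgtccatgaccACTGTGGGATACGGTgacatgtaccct
Kcna2: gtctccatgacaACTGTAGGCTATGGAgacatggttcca
Kcna6: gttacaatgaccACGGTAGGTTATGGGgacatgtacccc
Kcnh5: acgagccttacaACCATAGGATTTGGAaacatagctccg
Kcnj3: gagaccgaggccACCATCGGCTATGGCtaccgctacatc
Kcnk13 first site: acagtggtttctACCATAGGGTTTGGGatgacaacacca
Kcnk5 first site: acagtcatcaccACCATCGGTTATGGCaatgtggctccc
Kcnk5 second site: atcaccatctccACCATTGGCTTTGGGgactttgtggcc
Kcnma1: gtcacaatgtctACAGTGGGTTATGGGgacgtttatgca
Kcnt1: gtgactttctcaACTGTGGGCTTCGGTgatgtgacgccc
Kcnt2: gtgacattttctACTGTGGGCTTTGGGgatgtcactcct

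The signature was present in 77 of 77 pore-forming members and in 0 of 16 auxiliary members. Among all protein-coding genes 1171 of 21584 held it (5.43%), and a match is a description of letters, not of a working pore. The Kcna1 stretch shared 11 of its 15 bases with Kcna2 and 10 with Kcna6. Kcnh5 stands for the ether-a-go-go family, in which 8 of 8 members had a phenylalanine codon at the fourth position, as did Kcnt1 and Kcnt2. Kcna6 also held an upstream match of the leucine kind, and the tyrosine site is the one shown. All 14 tandem-pore genes held the signature at 2 places. Their first site had a tyrosine codon in 11 of 14, whereas the second had phenylalanine in 11, leucine in 3 and tyrosine in 0. Reads of close paralogs within a family could be shared between them. Exons of Kcna6, Kcnab1, Kcnab3, Kcnh3, Kcnj3, Kcnj6, Kcnj9 and Kcnj13 overlap an antisense gene. So do exons of Kcnk1, Kcnk2, Kcnma1, Kcnmb4, Kcnn1, Kcnn2, Kcnq5 and Kcnt2, and of the noncoding Kcnd3os, Kcnmb4os1, Kcnmb4os2 and Kcnq1ot1. Without the strand setting, reads of such overlapping genes cannot be told apart. Exons of Kcnab2 overlap a gene on the same strand.

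Libraries held 10094145 to 24056755 recovered reads, with 14042 to 17891 genes detected. Padi4, the targeted gene, had 0, 0 and 0 reads in the libraries labelled control and 0, 3 and 12 in those labelled cKO. Reads were thus seen only under the label cKO, where a loss would be looked for. With 0 reads in every library labelled control, no loss could show, and the 3 reads equal the detection floor. The log2 difference of 0.32 did not pass an exact permutation test (p = 0.4, two-sided, where 0.1 is the smallest p that 3 against 3 allow). Padi4 reads therefore cannot check the labels, and group names are used as labels only. Markers of the sorted cell type were present in every library, with a summed value of 10 pan-neuronal genes of 2155, 3167 and 2298 labelled control and 1035, 3329 and 5999 labelled cKO. Markers of the depleted oligodendrocytes were present as well: 8 genes summed to 25254, 20671 and 20496 labelled control and to 30676, 19845 and 10570 labelled cKO. In every library that sum exceeded the pan-neuronal sum, although sums over different genes do not give shares of cells. Summed markers ranged from 774 to 2104 for 7 astrocyte genes, from 12.9 to 44.5 for 7 microglial genes and from 124 to 3376 for 6 mural and fibroblast genes. The microglial genes C1qa, Tmem119 and Ptprc and the endothelial gene Cldn5 were each listed at 0 in at least 1 library. In bulk RNA, fewer cells of a type and less RNA per cell cannot be told apart.

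Values are read counts scaled to library depth (scaled CPM, the deposited unit), listed for replicates 1 to 3 labelled control and then for replicates 1 to 3 labelled cKO. Of the 97 members, 68 had reads in every library and 75 passed the filter, which asked for scaled CPM of 1 or more in 3 or more libraries. Those 75 were 34 voltage-gated pore subunits, 8 auxiliary subunits, 12 inward rectifiers, 9 tandem-pore channels, 10 calcium- or sodium-activated members and 2 noncoding transcripts. Kcne1, a small cardiac and inner-ear subunit, and Kcnk16, a pancreatic tandem-pore channel, had 0 reads in all 6 libraries. The other 20 that were not tested reached at most 12.2, the value of Kcng1 in cKO replicate 2.

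No member passed the test between the labelled genotypes. Limma with Benjamini-Hochberg adjustment called 0 of 75 members and 0 of 14796 genes (0%), and the smallest adjusted p of a member was 0.9996. At an unadjusted p under 0.05, 0 members were higher in the libraries labelled cKO, against 0.338% of all genes. Only 1 member was lower, against 0.514% of all genes. Of the 75, 39 had a mean difference above 0, or 52.0% against 48.0% of all genes. The median log2 fold change, labelled cKO minus labelled control on log2(value + 1), was 0.007 over members and -0.02 over all genes. The median standard error of a member was 0.67, against 0.54 over all genes. The members' median fell on the other side of 0 with equal column totals (-0.02) and median-of-ratios factors (-0.01), and was 0.04 with quantile normalization. Division by the pan-neuronal sum gave -0.11, where the median of all genes was itself -0.12.

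**Figure D1:**
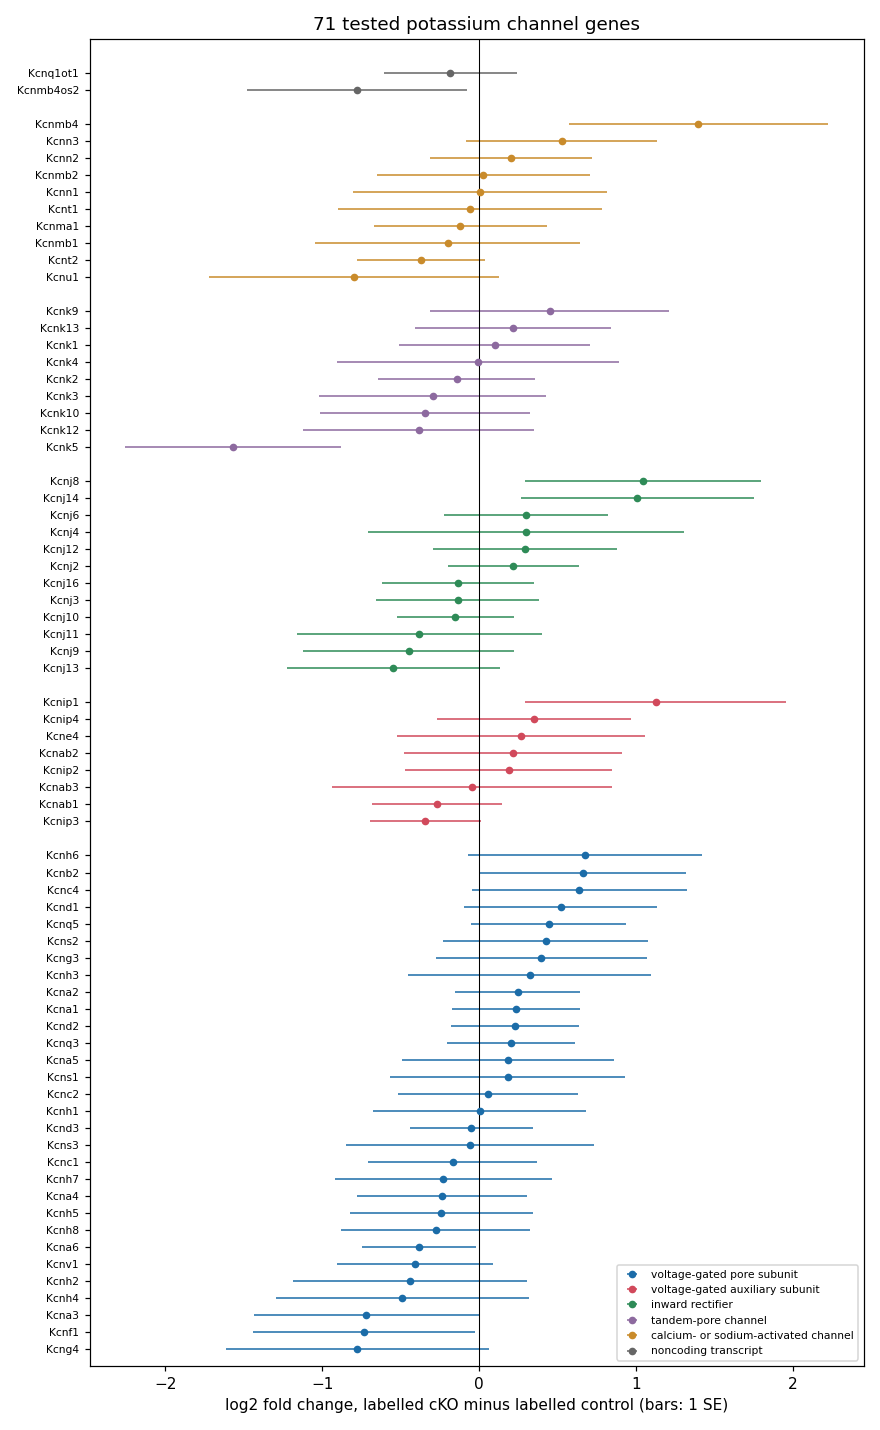
Log2 fold change (labelled cKO minus labelled control, on log2(value + 1)) of 71 of the 75 tested potassium channel genes, grouped by class; points are limma estimates and bars are 1 standard error. Estimates lie on both sides of 0 in each class of proteins, from -1.57 for Kcnk5 to 1.40 for Kcnmb4.

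No class held a member that passed the adjusted threshold. Positive differences were counted for 20 of 34 voltage-gated pore subunits (median 0.18), 5 of 8 auxiliary subunits (0.20), 6 of 12 inward rectifiers (0.04), 3 of 9 tandem-pore channels (-0.14) and 5 of 10 calcium- or sodium-activated members (-0.03). Unadjusted p-values were above 0.05 for all of them except Kcnk5. The plot of fold changes by class gives each estimate with its standard error.

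Of the voltage-gated pore subunits, Kcna1, on chr6:126640397-126646384, encodes a low-threshold subunit of axons whose current delays spiking. Its values were 699.8, 768 and 728 labelled control and 718, 1502 and 589 labelled cKO, with a log2 fold change of 0.23 ± 0.41 (SE). The 3 values labelled control were close together and cKO replicate 2 lay above all others, so the groups overlapped. Kcna2 forms mixed channels with Kcna1 along axons. Libraries labelled control held 233, 428 and 215 and those labelled cKO 202, 407 and 433, with a log2 fold change of 0.24 ± 0.40 (SE). Control replicate 2 and cKO replicates 2 and 3 were high and the other 3 libraries low. Kcna6 encodes another subunit of the same family. Scaled CPM was 258, 161 and 259 labelled control and 256, 117 and 160.0 labelled cKO, with a log2 fold change of -0.38 ± 0.36 (SE). Both libraries numbered 2 and cKO replicate 3 were low, and the groups overlapped.

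Kcnf1 makes no channel alone and alters those of other families. Replicates labelled control gave 13.6, 32.2 and 13.8 and those labelled cKO 5.90, 5.76 and 32.7, with a log2 fold change of -0.73 ± 0.71 (SE). The lowest 2 and the highest library all carried the cKO label. Kcna3 is well known from lymphocytes and microglia. Measured values were 15.2, 17.1 and 11.7 labelled control and 14.9, 2.02 and 16.5 labelled cKO, with a log2 fold change of -0.72 ± 0.72 (SE). cKO replicate 2 was the single low library, and without it the log2 fold change was 0.10.

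Of the 34 voltage-gated pore subunits tested, 11 were highest in cKO replicate 2 (32.4%, against 23.8% of all genes). Another 15 were highest in cKO replicate 3 (44.1%, against 18.2% of all genes). Control replicate 2 was highest for 6 (17.6%, against 17.4% of all genes). The 5 genes below were named after their values were seen, from those highest in cKO replicate 2 or 3. Kcnd2 encodes the A-type subunit of dendrites. Values by library were 57.2, 115 and 99.2 labelled control and 62.8, 110.1 and 153 labelled cKO, with a log2 fold change of 0.23 ± 0.41 (SE). Kcnq5, which can join Kcnq3 in the M current that restrains repetitive firing, was highest in cKO replicate 3. It measured 56.5, 83.9 and 64.2 labelled control and 43.6, 87.2 and 202 labelled cKO, with a log2 fold change of 0.44 ± 0.50 (SE). Kcnh5, an ether-a-go-go subunit, was lowest in cKO replicate 1. Its values were 58.0, 118 and 91.3 labelled control and 26.6, 83.3 and 168 labelled cKO, with a log2 fold change of -0.24 ± 0.58 (SE). Kcnb2, a delayed rectifier, was high in cKO replicates 2 and 3. Libraries labelled control held 17.2, 9.64 and 18.4 and those labelled cKO 7.48, 41.4 and 40.3, with a log2 fold change of 0.66 ± 0.66 (SE). Kcnc1, a fast subunit of rapidly firing neurons, was highest in cKO replicate 3. Scaled CPM was 52.1, 104 and 102 labelled control and 40.4, 52.4 and 182 labelled cKO, with a log2 fold change of -0.17 ± 0.54 (SE). The groups overlapped for each of these 5 genes.

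**Figure D2:**
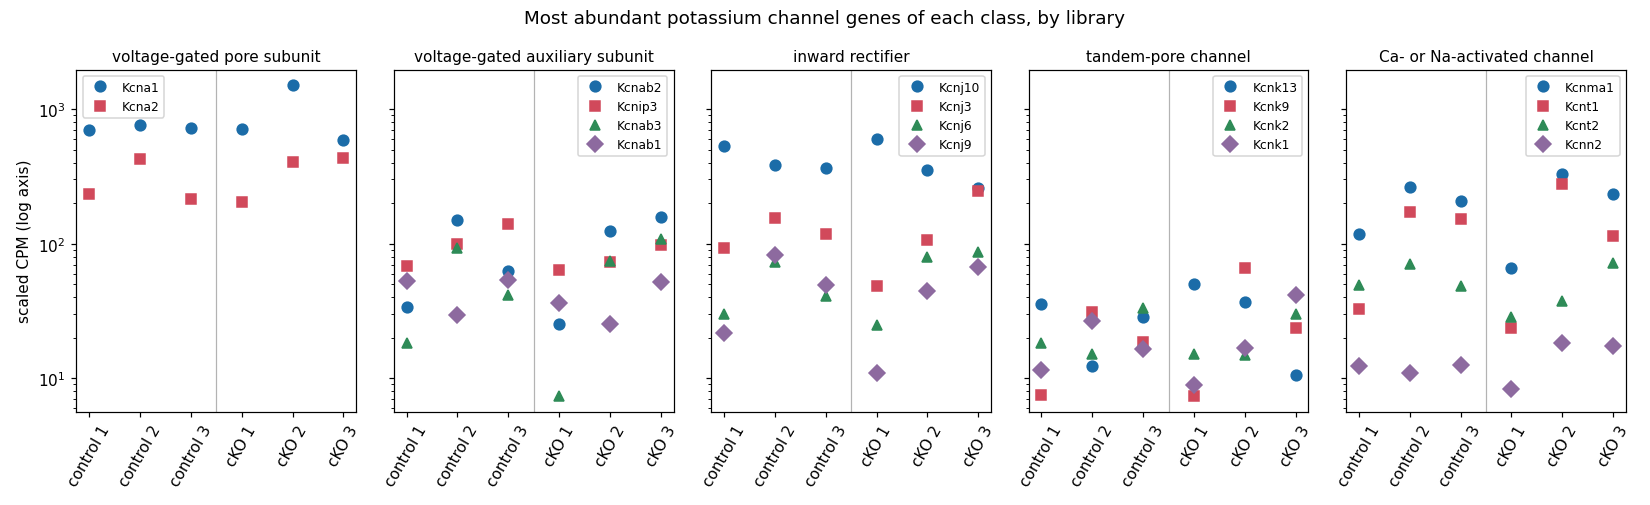
Scaled CPM (log axis) of members among the 4 with the highest mean value in each of 5 classes, 1 point per library, with the libraries labelled control left of the grey line. Most of these genes have their lowest value in cKO replicate 1, whereas Kcna1 stays at 718 there and Kcnj10 has its highest value, 605.

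Among auxiliary subunits, Kcnab2 encodes a beta subunit that helps to bring Kcna channels to the axon. Replicates labelled control gave 34.1, 151 and 62.8 and those labelled cKO 25.5, 125 and 158, with a log2 fold change of 0.21 ± 0.70 (SE). Kcnab3 encodes another beta subunit, and its exons overlap an antisense gene. Measured values were 18.3, 93.1 and 41.2 labelled control and 7.44, 74.7 and 108 labelled cKO, with a log2 fold change of -0.05 ± 0.89 (SE). Both genes were lowest in cKO replicate 1 and highest in cKO replicate 3. Kcnab1, the third beta subunit, which confers rapid inactivation, had a flatter profile. Values by library were 53.3, 29.7 and 53.7 labelled control and 36.3, 25.3 and 52.2 labelled cKO, with a log2 fold change of -0.27 ± 0.41 (SE). The libraries numbered 2 were its lowest. Kcnip3 encodes a calcium-binding subunit of Kcnd channels that has also been described as a transcriptional repressor. It measured 67.8, 98.6 and 141 labelled control and 63.9, 73.4 and 97.8 labelled cKO, with a log2 fold change of -0.34 ± 0.35 (SE). Control replicate 3 was highest and the groups overlapped. Kcnip1 belongs to the same calcium-sensing family. Its values were 12.2, 1.18 and 21.8 labelled control and 10.7, 21.6 and 24.7 labelled cKO, with a log2 fold change of 1.12 ± 0.83 (SE). Control replicate 2 was the single low library, and without it the log2 fold change was 0.13.

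Of the inward rectifiers, Kcnj10, on chr1:172341210-172374085, encodes the potassium-clearing channel of astrocytes and oligodendrocytes. Libraries labelled control held 535, 386 and 366 and those labelled cKO 605, 351 and 259, with a log2 fold change of -0.15 ± 0.37 (SE). The highest and the lowest library both carried the cKO label. Kcnj16 encodes the subunit that joins it. Scaled CPM was 15.2, 24.6 and 27.9 labelled control and 30.4, 19.5 and 13.1 labelled cKO, with a log2 fold change of -0.13 ± 0.48 (SE). cKO replicate 1 was again highest and cKO replicate 3 lowest. The summed oligodendrocyte markers were likewise highest in cKO replicate 1 and lowest in cKO replicate 3. The summed astrocyte markers were highest in cKO replicate 2 (2104) and lowest in control replicate 3 (774). Within that sum Aqp4 and Slc1a3 were highest in cKO replicate 1 (49.6 and 108) and lowest in cKO replicate 3 (9.51 and 26.3). No other gene of the astrocyte sum had that order. The part of either cell type in these values was not tested.

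The G protein-gated rectifiers, which open when inhibitory receptors are active, were low where Kcnj10 was highest. Kcnj3, on chr2:55435970-55598145, is their obligate partner in many neurons. Replicates labelled control gave 92.5, 156 and 119 and those labelled cKO 48.2, 107 and 248, with a log2 fold change of -0.14 ± 0.52 (SE). Kcnj6, the subunit that can form channels by itself, measured 30.0, 73.0 and 40.9 labelled control and 24.8, 79.0 and 86.1 labelled cKO, with a log2 fold change of 0.30 ± 0.52 (SE). Kcnj9, a subunit that joins either of them, measured 21.7, 82.3 and 49.0 labelled control and 11.0, 44.3 and 67.4 labelled cKO, with a log2 fold change of -0.45 ± 0.67 (SE). All 3 had their lowest value in cKO replicate 1, and the groups overlapped for each. Kcnj5, the subunit best known from the heart atrium, was not tested and reached at most 0.65.

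Other rectifiers belong to vessels, epithelia and neurons. Kcnj8 encodes the pore of the ATP-sensitive channel of smooth muscle and pericytes. Measured values were 15.7, 6.55 and 1.44 labelled control and 20.8, 8.89 and 11.5 labelled cKO, with a log2 fold change of 1.04 ± 0.75 (SE). Its sulfonylurea receptor gene Abcc9 measured 126, 15.7 and 7.06 labelled control and 141, 31.3 and 41.7 labelled cKO, with a log2 fold change of 1.18. Without control replicate 3 the log2 fold changes of Kcnj8 and Abcc9 were 0.31 and 0.34, and without control replicate 1 they were 1.70 and 2.33. Replicate 1 of each label was the highest library for both genes. The mural and fibroblast markers summed to 3376, 263 and 422 labelled control and 1963, 124 and 1926 labelled cKO. In control replicate 1 the largest parts of that sum were Col1a1 (1205), Col3a1 (1100) and Dcn (583). The mural gene Pdgfrb measured 217, 18.8 and 50.5 labelled control and 180, 52.7 and 159 labelled cKO. Rgs5 measured 182, 21.8 and 116 labelled control and 141, 25.5 and 81.7 labelled cKO. Acta2 measured 89.0, 55.3 and 57.7 labelled control and 80.6, 31.6 and 78.8 labelled cKO. The part of these cells was not tested. Kcnj2, a strong rectifier of vessels and excitable cells, measured 30.5, 27.7 and 20.4 labelled control and 26.0, 44.2 and 24.0 labelled cKO, with a log2 fold change of 0.22 ± 0.42 (SE). Kcnj14, a relative of Kcnj2, measured 1.01, 0 and 0.89 labelled control and 1.34, 5.86 and 0.93 labelled cKO, with a log2 fold change of 1.01 ± 0.74 (SE). Kcnj13, a channel of transporting epithelia such as choroid plexus, measured 6.27, 4.19 and 2.50 labelled control and 5.18, 1.82 and 1.43 labelled cKO, with a log2 fold change of -0.55 ± 0.68 (SE). Kcnj4 and Kcnj12, named after their values were seen, mark the ends of the spread among tested members with over 3 reads in each library. Values by library were 7.84, 39.9 and 13.5 labelled control and 2.54, 39.0 and 67.7 labelled cKO for Kcnj4, a ratio of highest to lowest of 26.6. It measured 6.08, 3.90 and 5.17 labelled control and 4.61, 7.98 and 6.82 labelled cKO for Kcnj12, a ratio of 2.05. The groups overlapped for these genes, and Kcnj14 was above 5 only in cKO replicate 2.

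Tandem-pore channels carry leak currents. Kcnk13, on chr12:99964499-100062682, is known as the resting channel of microglia. Its values were 35.8, 12.3 and 28.4 labelled control and 50.5, 36.9 and 10.5 labelled cKO, with a log2 fold change of 0.22 ± 0.62 (SE). cKO replicate 1 was highest and cKO replicate 3 lowest. The microglial markers summed to 25.1, 44.2 and 31.2 labelled control and 32.7, 44.5 and 12.9 labelled cKO. The oligodendrocyte markers had their highest sum in cKO replicate 1 (30676) and their lowest in cKO replicate 3 (10570). The part of either cell type in the Kcnk13 values was not tested. Kcnk9 encodes an acid-sensitive leak channel of neurons. Libraries labelled control held 7.56, 31.3 and 18.6 and those labelled cKO 7.39, 65.5 and 23.7, with a log2 fold change of 0.45 ± 0.76 (SE). Both libraries numbered 1 were low and cKO replicate 2 high. Kcnk2, a channel opened by stretch and by arachidonic acid, measured 18.3, 15.1 and 33.5 labelled control and 15.1, 14.9 and 30.1 labelled cKO, with a log2 fold change of -0.14 ± 0.50 (SE). Its relative Kcnk10 measured 2.95, 13.5 and 6.50 labelled control and 6.38, 3.74 and 5.01 labelled cKO, with a log2 fold change of -0.35 ± 0.67 (SE). Kcnk1, a weak leak channel found in astrocytes and neurons, measured 11.4, 26.8 and 16.6 labelled control and 8.88, 16.9 and 41.3 labelled cKO, with a log2 fold change of 0.10 ± 0.61 (SE). The groups overlapped for all of these.

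Kcnk5, on chr14:20140057-20181809, encodes an alkaline-sensitive channel known from kidney. Scaled CPM was 4.70, 4.85 and 2.00 labelled control and 0.53, 0 and 1.52 labelled cKO, with a log2 fold change of -1.57 ± 0.69 (SE), an unadjusted p of 0.0455 and an adjusted p of 0.9996 by limma with Benjamini-Hochberg adjustment. All values labelled cKO were under all values labelled control. It was the only tested member without overlap, in a table where 2.26% of all genes had each cKO library below each control library and 2.45% above. The values correspond to few reads, with 0 in cKO replicate 2. Kcnk5 met the filter through the libraries labelled control, where it is high, since under the label cKO only replicate 3 reached 1. Its p and its lack of overlap therefore only describe these values. Kcnk6 failed the filter but had no overlap in the other direction, with 0.28, 0 and 0.33 labelled control and 2.06, 10.4 and 0.76 labelled cKO. It is named after its values were seen.

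Of the calcium- and sodium-activated members, Kcnma1 encodes the large-conductance channel that couples calcium entry to repolarization. Replicates labelled control gave 119, 264 and 208 and those labelled cKO 65.9, 327 and 236, with a log2 fold change of -0.12 ± 0.55 (SE). Its brain beta subunit gene Kcnmb4 was at low values. Measured values were 1.94, 0 and 0.39 labelled control and 0.77, 9.80 and 2.90 labelled cKO, with a log2 fold change of 1.40 ± 0.83 (SE). The exons of Kcnmb4 overlap the antisense transcripts Kcnmb4os1 and Kcnmb4os2, so reads cannot be assigned between them without the strand. Kcnmb4os2 measured 1.01, 3.31 and 0.67 labelled control and 0.43, 0 and 1.01 labelled cKO, with a log2 fold change of -0.78 ± 0.70 (SE). The groups overlapped for all 3, and Kcnmb4 was above 3 only in cKO replicate 2.

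Kcnq1ot1, the long antisense transcript of the imprinted Kcnq1 locus, was 1 of 2 noncoding members tested. Values by library were 533, 616 and 436 labelled control and 632, 647 and 239 labelled cKO, with a log2 fold change of -0.18 ± 0.42 (SE). cKO replicate 3 was its single low library. Kcnd3os, antisense to Kcnd3, failed the filter and had no overlap, with 0.37, 2.43 and 0.39 labelled control and 0.29, 0 and 0.08 labelled cKO, and it is named after its values were seen.

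Sodium-activated channels end long bursts of spikes. Kcnt1 measured 32.4, 171 and 153 labelled control and 23.7, 277 and 113 labelled cKO, with a log2 fold change of -0.06 ± 0.84 (SE). Kcnt2 measured 49.1, 70.9 and 48.1 labelled control and 28.5, 37.4 and 71.4 labelled cKO, with a log2 fold change of -0.37 ± 0.41 (SE). Kcnt1 ranged far more widely across libraries than Kcnt2, with the replicate 1 libraries of both labels low. Kcnn2 encodes a small-conductance channel that is opened by calcium bound to calmodulin and underlies the afterhyperpolarization. It measured 12.4, 11.0 and 12.6 labelled control and 8.35, 18.4 and 17.5 labelled cKO, with a log2 fold change of 0.20 ± 0.52 (SE). The values labelled control were nearly equal, and the values labelled cKO lay on both sides of them.

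Levels can be compared between genes only per length, and per kilobase of exon the mean over 6 libraries was highest for Kcna1 at 174 scaled CPM. Kcnj10 followed at 77.1, Kcna6 at 34.0, Kcna2 at 26.9, Kcnip3 at 25.5 and Kcnj3 at 24.6. Across libraries the per-kilobase values of Kcna1 ran from 123 to 314, those of Kcnj10 from 48.0 to 112 and those of Kcna6 from 19.7 to 43.6, with no overlap between these 3. Kcna2 ranged from 17.0 to 36.4 and Kcnj3 from 9.24 to 47.5, and from Kcna6 downward neighbours in this order overlapped. Within the Kcna family, Kcna1 made up 61.4% to 84.6% of the per-length sum and Kcna6 5.31% to 19.6%. The per-length share of Kcnj3 among the G protein-gated rectifiers was 49.8% to 66.0%.

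The make-up of the Kcnt, beta subunit and small-conductance families differed between libraries. Kcnt1 was 32.4%, 63.7% and 69.8% of the Kcnt pair in the libraries labelled control and 37.7%, 84.3% and 53.5% in those labelled cKO. Kcnab1 was 33.1%, 5.50% and 19.6% of the beta subunits labelled control and 37.1%, 5.72% and 8.40% labelled cKO. Kcnn1 was 23.6%, 72.4% and 41.1% of the small-conductance channels labelled control and 25.0%, 53.0% and 43.0% labelled cKO. In these 3 families replicate 1 of each label stood apart. No family member had shares that separated the labels. These families were chosen after their values were seen.

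**Figure D3:**
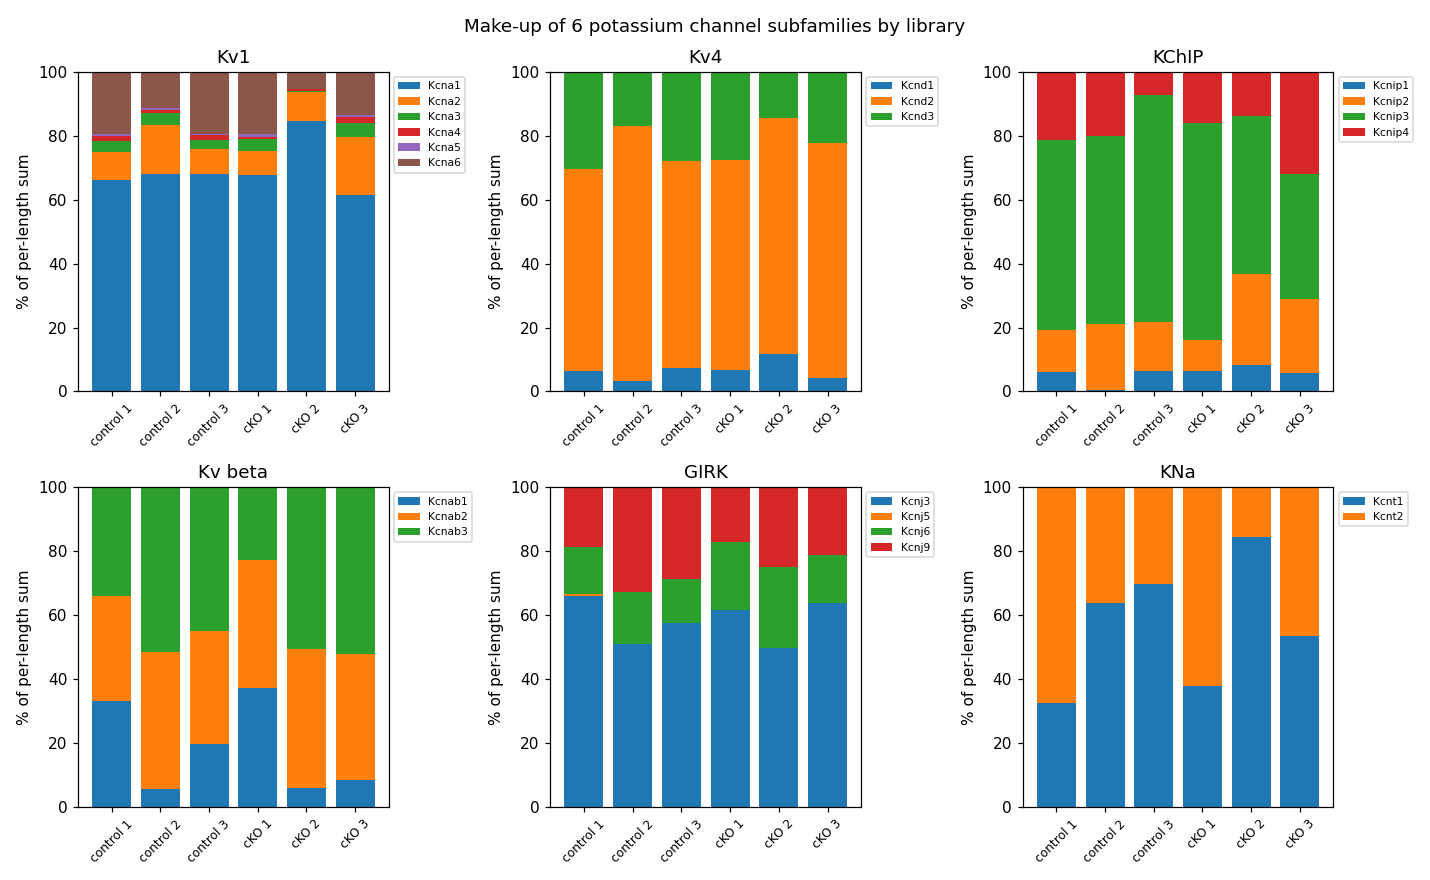
Share (% of the sum per kilobase of exon) of each gene in 6 potassium channel families, 1 stacked bar per library. Kcna1 fills most of the Kv1 (Kcna) bar in every library, from 61.4% to 84.6%, whereas the shares of Kcnt1 and Kcnab1 differ between replicate 1 and the other libraries of either label.

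Differences between single libraries ran across many members at once. cKO replicate 1 held the lowest value of 37 of 75 members (49.3%), against 15.6% of all genes. cKO replicate 3 held the highest value of 28 (37.3%), against 18.2% of all genes. The first count was 38 with equal totals, 40 with median-of-ratios factors and 39 with quantile normalization, and the second was 23, 22 and 22. Division by the pan-neuronal sum moved all genes: cKO replicate 1 was then lowest for 7 members (9.33%) against 1.17% of all genes, and cKO replicate 3 highest for 0 members against 0.38% of all genes. Without the libraries numbered 2, which had the fewest detected genes of their groups, cKO replicate 1 was lowest for 46 of 75 members (61.3%), against 27.0% of all genes. The median deviation of the voltage-gated pore subunits from each gene's mean was -0.83 in cKO replicate 1 and 0.72 in cKO replicate 3. For pan-neuronal markers these deviations were -1.30 and 1.00, and for oligodendrocyte markers 0.58 and -0.71, and the part of these cells in the channel values was not tested.

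Channels known from glia, vessels and microglia were also counted as a list. It has 12 members, of which Kcnn4 and Kcnk6 failed the filter. Of the 10 tested, 1 was lowest in cKO replicate 1 (10%, against 15.6% of all genes). In the same library 4 were highest (40%, against 16.4% of all genes). In cKO replicate 3, 4 were lowest (40%, against 12.5% of all genes). The member of the list that was lowest in cKO replicate 1 was Kcnk1, which was highest in cKO replicate 3. Of the 65 tested members outside the list, 36 were lowest in cKO replicate 1 (55.4%, against 15.6% of all genes). Dividing by the pan-neuronal sum changed the median ratio of highest to lowest library from 5.35 to 3.58 for 56 protein-coding members outside the list, and from 4.48 to 13.5 for the 10 in it. Kcnj3 went from 5.14 to 1.61, whereas Kcnj10 went from 2.33 to 13.5 and Kcna1 from 2.55 to 7.06. The last of these is no member of the glial list. The ratio became smaller for 39 of the 56 members outside the list and for 1 of the 10 in it. The pan-neuronal sum itself ran from 1035 to 5999. After the division cKO replicate 1 was highest for 12007 of 14796 genes, and the median ratio over all genes was not computed.

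**Figure D4:**
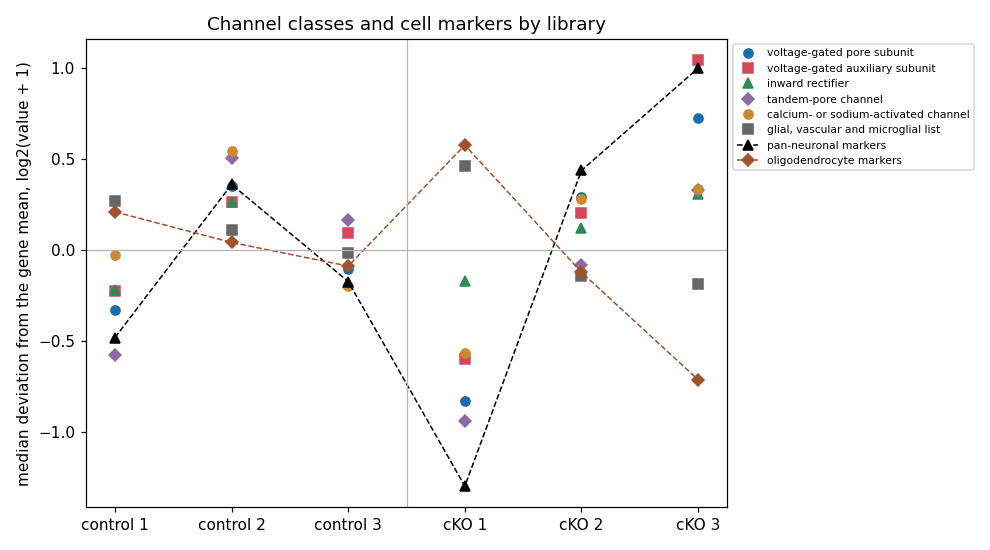
Median deviation from each gene's own mean (log2(value + 1)) for 5 potassium channel classes, the glial, vascular and microglial channel list, and 2 marker lists joined by dashed lines, by library. Voltage-gated pore subunits lie at -0.83 in cKO replicate 1 and 0.72 in cKO replicate 3, on the side of the pan-neuronal markers (-1.30 and 1.00), and the glial list lies at 0.46 and -0.18.

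Single libraries moved the members' balance. Without cKO replicate 1 the median log2 fold change of members was 0.46 and 50 of 75 were above 0. Then 11 of 75 members had an unadjusted p under 0.05 by limma and a higher mean labelled cKO, against 2.99% of all genes. With a lower mean there were 0 members, against 3.69% of all genes. Since cKO replicate 1 was the lowest library of 37 members, leaving it out raises their mean labelled cKO by construction. The 11 included Kcnb2, Kcnh1, Kcnj4, Kcnc4, Kcnq5, Kcnh3 and Kcnmb4. None of the 11 passed the adjusted threshold, the smallest adjusted p by limma being 0.735. Without cKO replicate 3 the median was -0.27 and 28 of 75 were above 0. The group labelled cKO keeps 2 libraries in each of these fits.

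Partner genes of potassium channels and the potassium-dependent transporters were described in the same way. Of 27 partners 25 were tested, 0 passed, 13 were above 0, and the median log2 fold change was 0.01. Slc12a5, the potassium-chloride exporter of mature neurons, measured 117, 254 and 167 labelled control and 61.8, 289 and 422 labelled cKO. Slc12a2, the chloride importer abundant in glia, measured 1255, 708 and 685 labelled control and 1606, 598 and 356 labelled cKO. The lowest library of Slc12a5 was thus the highest of Slc12a2, and the reverse held for cKO replicate 3. Both genes are named after their values were seen. Of the 25 partners tested, 12 were lowest in cKO replicate 1 (48.0%, against 15.6% of all genes). In the same library 2 were highest (8%, against 16.4% of all genes). In cKO replicate 3, 10 were highest (40.0%, against 18.2% of all genes) and 2 were lowest (8%, against 12.5% of all genes). Lgi2, a secreted relative of the epilepsy protein Lgi1, measured 6.91, 11.8 and 6.89 labelled control and 2.78, 0.20 and 12.3 labelled cKO, with a log2 fold change of -1.24 and overlapping groups.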

How the data were processed

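The unit is a normalized signal: the authors deposited CPM per gene and library, rescaled once more per library, since column totals were unequal. Trimmomatic, HISAT2, featureCounts and edgeR with the mm10 build are named, with no versions, per the submitters' processing notes. The library kit was Ovation SoLo, per the labels' protocols. Strand, counting annotation and multi-mapping are not given in the sources consulted. Exons of 30 of the 97 members overlap an antisense gene in GENCODE M21 and 2 overlap a gene on the same strand, and these members carry that uncertainty.

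Each library's values stepped by the worth of 1 read, and dividing by it returned whole reads (100% within 0.001 of a whole number). That step was 0.101 scaled CPM in cKO replicate 2. Depth ran from 10094145 to 24056755 reads. The detection floor was 3 reads (0.126 to 0.303 scaled CPM), which covers counting error only. Groups were compared with limma 3.58.1 (R 4.3.3, trended variance prior) on log2(value + 1), a scale that understates changes of low genes. It ran on the 14796 genes that reached 1 in 3 or more libraries, with Benjamini-Hochberg adjustment and a threshold of 0.05, and was tested on simulated data. The design had assumed scaled CPM, which the same test fits. For Padi4 an exact permutation test was used. On recovered reads edgeR 4.0.16 called 0 genes and DESeq2 1.42.0 called 1, of which 0 were members.

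The members, the gene lists and the rule for named genes were chosen with earlier results of these data known. The rule names the 4 members of each class with the highest mean scaled CPM, the 6 members with the smallest unadjusted p in each direction, tested members of the glial, vascular and microglial list, the 2 partner genes with the smallest p, and Padi4. Of the 75 tested members, 4 are counted but not reported here by name. The families, the counts of lowest and highest libraries, and the genes named outside the rule were chosen after their values were seen. Also run were 4 other scalings, a replicate block, array weights, both count tools, fits without each library, pseudocounts 0.1 and 5, a filter at 5 and fits of unfiltered genes. Leaving out both libraries numbered 2 was added after the data were seen. Replicate numbers were not used as pairs in the main fit. The correlations of same-numbered libraries' deviations were 0.491, 0.301 and 0.034, and those between unlike numbers ran from -0.403 to 0.028.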

Additional observations from a re-analysis of the deposited data

How the results depend on the processing

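Under each of the 19 alternatives run, limma, edgeR or DESeq2 called 0 members. All genes tested gave 0 calls too, except for 1 with DESeq2. Adjusted p-values of members and of the named genes were at least 0.735 in each setting. The median log2 fold change of members ran from -0.27 to 0.46 when a library was left out, and was 0.25 with edgeR, 0.23 with DESeq2, 0.20 with array weights and -0.11 after division by the pan-neuronal sum. Detection is limited for members with few reads, such as Kcnk5 and Kcnmb4, and all fold changes rest on 3 libraries a label.

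With the replicate block, 0 genes and 0 members were called. Each library correlated best with its own number, although the correlation was near 0 for number 3. These correlations do not settle whether the numbers pair the libraries. Unadjusted p-values under 0.05 numbered 110 genes higher and 197 lower with the block, and 50 and 76 without it.

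Of 33 named genes, 17 changed sign in at least 1 fit that left out a library, and none of these differences had passed the test. Their log2 fold changes ran for Kcna1 from -0.17 to 0.51, Kcna3 from -1.16 to 0.10, Kcnab2 from -0.28 to 1.02, Kcnab3 from -0.75 to 1.10, Kcnj10 from -0.48 to 0.12 and Kcnj16 from -0.43 to 0.15. They ran for Kcnj2 from -0.0479 to 0.38, Kcnj3 from -0.73 to 0.44, Kcnj6 from -0.0123 to 0.87, Kcnj9 from -0.97 to 0.29, Kcnk1 from -0.46 to 0.59 and Kcnk10 from -0.81 to 0.13. For the remaining genes they ran as follows: Kcnk13 from -0.22 to 0.86, Kcnk2 from -0.46 to 0.18, Kcnk9 from -0.29 to 1.21, Kcnma1 from -0.58 to 0.57 and Kcnt1 from -0.86 to 0.89. Without a change of sign they ran for Kcnj8 from 0.31 to 1.70, Abcc9 from 0.34 to 2.33, Kcnj14 from 0.44 to 1.36, Kcnip1 from 0.13 to 1.82, Kcnmb4 from 0.72 to 2.02, Kcnmb4os2 from -1.05 to -0.37, Kcnf1 from -1.50 to -0.34 and Lgi2 from -2.12 to -0.39.

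Signs also turned in other settings, and the cause was not tested. Array weights gave Kcna1 -0.0211, Kcnab3 0.45, Kcnj3 0.27, Kcnk13 -0.45 and Kcnf1 0.0598. Without both libraries numbered 2, Kcna1 was -0.13, Kcnab3 0.0886, Kcnj3 0.0626, Kcnk13 -0.43, Kcnn2 -0.0374, Kcnip1 -0.001, Kcnf1 0.0512, Kcna3 0.22 and Kcnk10 0.29. The pseudocount of 5 gave Kcnab3 0.0297, and division by the pan-neuronal sum gave Kcnk1 -0.0359. On recovered reads edgeR gave Kcnab3 0.32, Kcnj3 0.13, Kcnma1 0.0869 and Kcnt1 0.21, and DESeq2 gave Kcnab3 0.291, Kcnj3 0.0988, Kcnma1 0.0751 and Kcnt1 0.213.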
